A study of Mus musculus with 4 samples.

Results

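Bone morphogenetic protein (BMP) signalling was described here through 10 genes of 32286 features measured: the ligands Bmp2, Bmp4 and Bmp6, the receptors Bmpr2, Acvrl1 and Eng, and the target genes Id1, Id2, Id3 and Id4. The genes were chosen by name, and each symbol matched 1 feature of the files. BMP ligands are secreted dimers that bring type I and type II receptor kinases together. The active type I receptor phosphorylates Smad1, Smad5 and Smad9, which enter the nucleus with Smad4 and switch on the Id genes, whose proteins bind E proteins and keep them from DNA. In endothelium the type I receptor Acvrl1 (ALK1), its coreceptor Eng (endoglin) and the type II receptor Bmpr2 respond to ligands in the blood, and mutations in these genes cause inherited vascular disease.

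The study profiled single cells of mouse popliteal vessels by droplet 3' RNA sequencing. All mice were adults that carried the Wt1 GFPCre allele (Wt1tm1(EGFP/cre)Wtp) and the Ai9 tdTomato Cre reporter (Gt(ROSA)26Sortm9(CAG-tdTomato)Hze), with Evans blue dye injected into the footpads, so no group was free of these alleles or of the dye. PLV libraries 1 and 2 each held popliteal lymphatic vessels (PLV) from a pool of 2 mice, digested for 30 min with collagenase I, Dispase II, DNAse and Liberase. The mixed library held hashtagged cells of popliteal lymphatic vessels and blood vessels (BV) from 1 pool of 2 mice, digested for 60 min with collagenase I and Dispase II. Vessel, digestion, run and mice therefore cannot be told apart between the mixed library and the PLV libraries. The hashtags were not used, because the deposited note does not pair the antibodies with the vessels.

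After filters, 1911, 516 and 994 cells remained in PLV library 1, PLV library 2 and the mixed library, with 9582341, 3390010 and 7770796 unique molecular identifiers (UMIs, 1 for each RNA molecule counted). No kept cell barcode was shared between libraries. Cells were clustered in each library without the 10 genes, and clusters were named from marker genes as blood endothelial-like (BEC-like; 297, 60 and 174 cells), lymphatic endothelial-like (LEC-like; 192, 69 and 53), muscle-like (424, 109 and 329), pericyte-like (38, 27 and 40), fibroblast-like (386, 88 and 286) and Schwann-like (234, 53 and 38). Every class carried its own marker list, except that 2 of 7 lymphatic markers were at 0 in the LEC-like cells of the mixed library. LEC-like cells also held the shared endothelial markers of the BEC list (summed level 6850, 6881 and 7951 counts-per-million, CPM), and pericyte-like cells also held the smooth muscle list (8240, 9459 and 9760 CPM). The BEC-like cells of PLV library 1 carried 4027 CPM of haemoglobin RNA, against 532 and 169 CPM in PLV library 2 and the mixed library. Levels below are CPM of the UMIs summed over the cells of a class, and 3 values in a row stand for PLV library 1, PLV library 2 and the mixed library. The library was the replicate (n = 3), classes were compared on these sums with edgeR's quasi-likelihood test with library as a block, and p-values were adjusted by Benjamini-Hochberg over all genes tested, with a gene called at an adjusted p under 0.05. Each library pools 2 mice. With the block, these p-values measure how differences between classes vary from library to library, with the spread of a gene shared over the 6 classes of the fit. The mixed library also differs in vessel, digestion and run, so the 3 libraries are not like pools. Counting intervals cover counting error only.

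Over the 6 classes each of the 3 ligands had its own order of classes, the receptors Acvrl1 and Eng were led by the endothelial classes, and each Id gene had its own order. Bmp2 was a gene of muscle-like and pericyte-like cells, Bmp4 of LEC-like cells, and Bmp6 of BEC-like, LEC-like and muscle-like cells. Id1 was led by BEC-like cells, Id2 by muscle-like cells and Id4 by muscle-like and pericyte-like cells, whereas the ranges of Id3 over libraries overlapped in succession from fibroblast-like through muscle-like and pericyte-like to BEC-like cells.

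**Figure D1:**
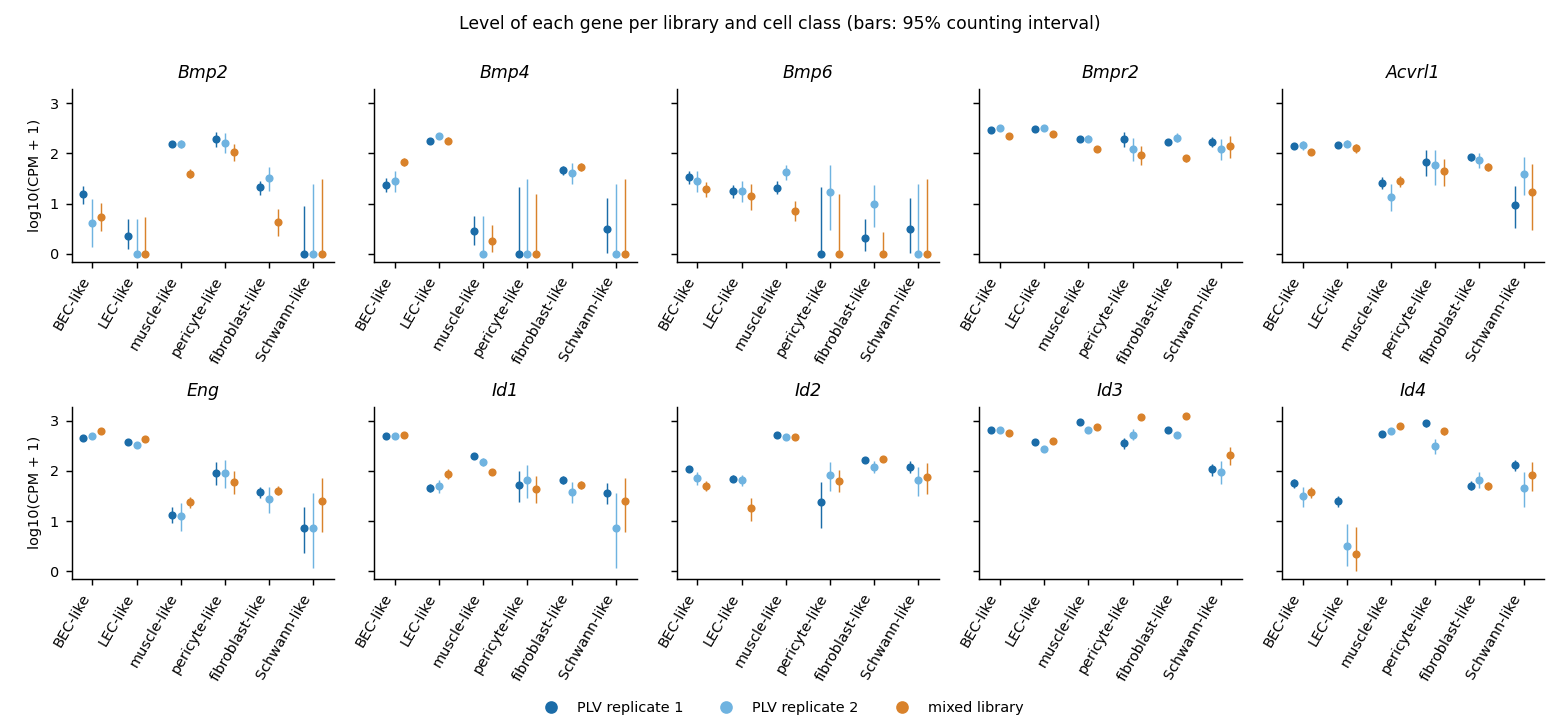
Level of each of the 10 genes in the 6 classes, as log10(CPM + 1) of the summed UMIs, with 1 point per library and bars for the exact Poisson 95% interval of the count. Bmp4 sits at 177 to 225 CPM in LEC-like cells and at 0 in pericyte-like cells, and Id1 sits near 500 CPM in BEC-like cells of all 3 libraries.

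Between BEC-like and LEC-like cells 5 of 10 genes were called, against 21.5% of the 10488 genes tested in that comparison. Of these, 4 were higher and 1 lower in BEC-like cells, beside 12.1% and 9.46% of genes tested. Between BEC-like and muscle-like cells 8 of 10 were called, against 40.3% of genes tested, with 5 higher and 3 lower in BEC-like cells beside 21.2% and 19.1%. Muscle-like and fibroblast-like cells also differed in 8 of 10, against 39.2%, with 5 higher and 3 lower in muscle-like cells beside 17.4% and 21.8%. Muscle-like and pericyte-like cells differed in 3 of 10, against 13.2%, with 2 higher and 1 lower in muscle-like cells beside 7.44% and 5.73%. Schwann-like cells differed from fibroblast-like cells in 7 of 10, against 36.1%, and all 7 were lower in Schwann-like cells, beside 20.7% of genes tested. Leaving out PLV library 1 or PLV library 2 brought the BEC-like against LEC-like count to 3, and leaving out PLV library 1 brought the Schwann-like count to 4. With coarser clusters the muscle-like against pericyte-like count was 0, and 326 in place of 1381 of all genes were called. The median log2 difference over the 10 genes was 0.73, 0.65, 0.62, 0.49 and -1.78 in these 5 comparisons in turn, beside 0.04, 0.03, -0.04, 0.04 and -0.13 over all genes tested. The genes share a pathway and were not drawn at random, so the counts describe the 10 genes alone.

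Fitted differences used edgeR's TMM scaling, which moved the median gene by -0.22 (log2) between muscle-like and fibroblast-like cells, 0.17 between muscle-like and pericyte-like cells and -0.33 between Schwann-like and fibroblast-like cells relative to plain CPM. With plain CPM the share of higher genes among all calls was 58.1% in place of 44.5%, 41% in place of 56.5% and 59.8% in place of 42.7% in these comparisons. No gene of the 10 that was called by TMM scaling in a comparison of classes changed direction with plain CPM, although Id1 and Id2 were no longer called between Schwann-like and fibroblast-like cells.

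**Figure D2:**
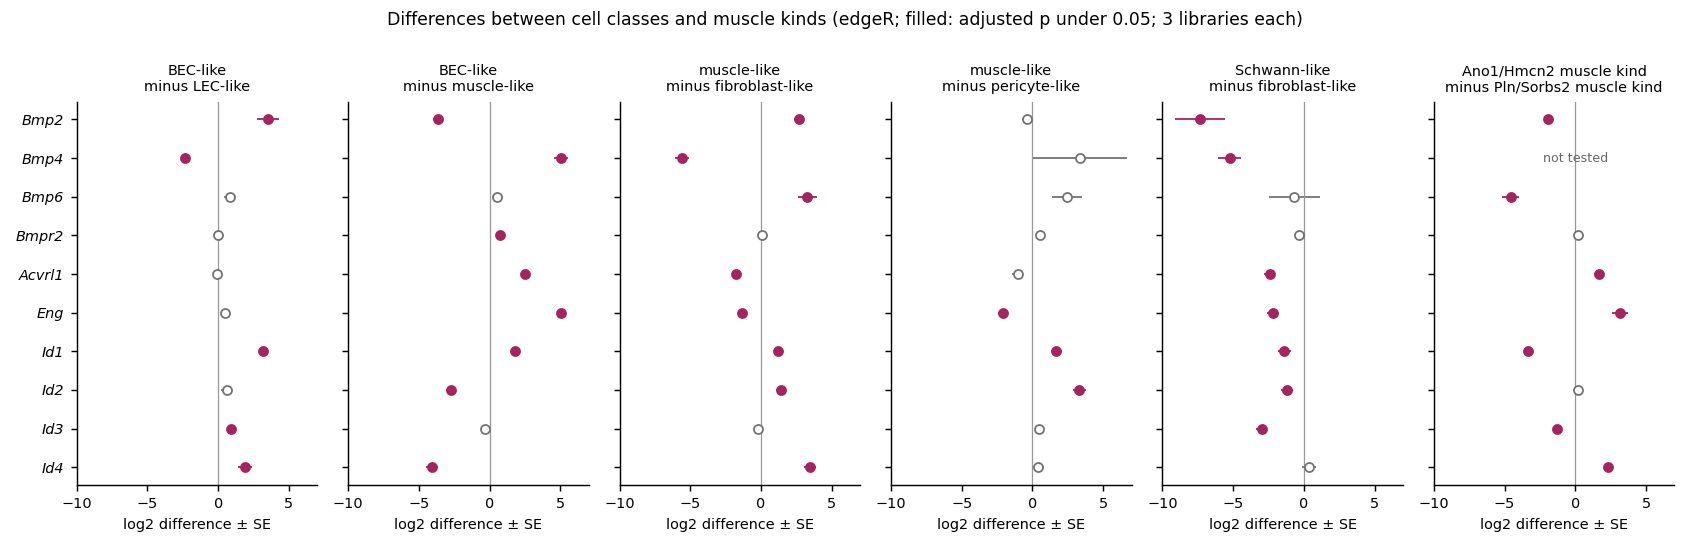
Log2 difference of each of the 10 genes in the 5 comparisons of classes, with bars for the standard error (SE) and filled points for genes called at an adjusted p under 0.05 by edgeR's quasi-likelihood test. Bmp4 lies at -2.34 between BEC-like and LEC-like cells and at 5.05 between BEC-like and muscle-like cells, and Id4 at 1.91 and -4.07.

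Bmp2 (ENSMUSG00000027358; chr2:133552159-133562885, + strand, GRCm38), a ligand that acts in bone, heart and vessel formation, was found in mural cells. Its level was 192, 164 and 107 CPM in pericyte-like cells and 157, 151 and 38.6 CPM in muscle-like cells, 2 classes whose ranges overlap. Fibroblast-like cells held 20.1, 31.0 and 3.22 CPM and BEC-like cells 14.3, 3.18 and 4.44 CPM (22, 2 and 7 UMIs). LEC-like cells held 3 Bmp2 UMIs in PLV library 1 and 0 in the other 2 libraries, and Schwann-like cells held 0 in each, where 3 UMIs would be 6.34, 19.2 and 24.6 CPM. Both mural classes lay above the 4 other classes in every library. Bmp2 was 12.6-fold lower in BEC-like than in muscle-like cells (log2 -3.66, SE 0.37, adjusted p = 2.8e-07, edgeR) and higher in muscle-like than in fibroblast-like cells (log2 2.70, SE 0.35, adjusted p = 4.91e-06). Muscle-like and pericyte-like cells did not differ beyond their spread (log2 -0.42, SE 0.33, adjusted p = 0.489). From summed UMIs, Bmp2 was 11.2-fold higher in BEC-like than in LEC-like cells (counting interval 3.48 to 57; adjusted p = 0.00238, and 0.0720 without PLV library 1), and Schwann-like cells were at least 3.26-fold lower than fibroblast-like cells against a floor of 3 UMIs over the group (adjusted p = 0.00291, and 0.132 without PLV library 1). Pericyte markers moved with the first of these differences: the 8 markers summed to 1777, 788 and 1007 CPM in BEC-like cells, with 0 markers at 0 in each library, and to 69.1, 9.66 and 7.24 CPM in LEC-like cells, with 3, 5 and 5 at 0. The 9 muscle markers summed to 1741, 933 and 1356 CPM in BEC-like cells (1, 2 and 1 at 0) and to 1474, 198 and 181 CPM in LEC-like cells (0, 2 and 4 at 0). The part of either list in the result was not tested.

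Bmp4 (ENSMUSG00000021835; chr14:46383520-46390669, - strand, GRCm38), a ligand needed for mesoderm formation and later organ growth, was a gene of LEC-like cells and was at or near 0 in mural cells. LEC-like cells held 177, 225 and 179 CPM (404, 210 and 148 UMIs), with counting intervals of 160 to 195, 196 to 258 and 151 to 210 CPM. Fibroblast-like cells held 45.2, 39.8 and 52.5 CPM and BEC-like cells 22.7, 27.0 and 66.6 CPM, and these 2 ranges overlap. Muscle-like cells held 4, 0 and 2 UMIs of Bmp4, Schwann-like cells 1, 0 and 0, and pericyte-like cells 0 in all 3 libraries, where 3 UMIs would be 16.9, 24.5 and 11.9 CPM. LEC-like cells therefore lay above every other class in every library. Bmp4 was 5.06-fold lower in BEC-like than in LEC-like cells (log2 -2.34, SE 0.28, adjusted p = 4.15e-06, edgeR), and this call held in all 13 alternatives tried, with log2 values from -2.99 to -2.06. It was higher in BEC-like than in muscle-like cells (log2 5.05, SE 0.50, adjusted p = 1.67e-07) and lower in muscle-like than in fibroblast-like cells (log2 -5.57, SE 0.48, adjusted p = 3.64e-08). From summed UMIs it was 36.2-fold lower in Schwann-like than in fibroblast-like cells, with a counting interval of 6.43 to 1437 because Schwann-like cells held 1 UMI (adjusted p = 7.14e-05).

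RefSeq sequence upstream of the transcript start was at hand for 7 of the 10 genes, and is shown where it lies outside annotated exons and belongs to a gene whose level differed most sharply between classes. The 250 bases before the Bmp4 start (chr14:46390670-46390919, - strand, GRCm38.p6) are given 5′ to 3′, with capitals on the letters CANNTG, the E-box that E proteins and other basic helix-loop-helix factors can bind:
Bmp4: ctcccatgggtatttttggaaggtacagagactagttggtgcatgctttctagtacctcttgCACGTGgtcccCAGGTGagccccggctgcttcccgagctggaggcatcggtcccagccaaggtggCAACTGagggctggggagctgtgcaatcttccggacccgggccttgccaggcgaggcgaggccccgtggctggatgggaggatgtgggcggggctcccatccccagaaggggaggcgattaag
The window holds 3 matches to CANNTG and none to GGCGCC, a GC-rich element that BMP-activated Smads can bind, on either strand. Of 32851 promoter windows of this length 66.2% hold CANNTG and 9.59% hold GGCGCC, so a CANNTG match is common. A match describes the letters and is not evidence of a bound site.

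Bmp6 (ENSMUSG00000039004; chr13:38345107-38500302, + strand, GRCm38), an endothelial ligand best known for setting the iron hormone of the liver, was low in all classes. BEC-like cells held 32.4, 27.0 and 18.4 CPM (50, 17 and 29 UMIs), muscle-like cells 19.9, 42.2 and 6.24 CPM and LEC-like cells 16.6, 17.2 and 13.3 CPM. These 3 ranges overlap, and the differences between BEC-like and LEC-like cells (log2 0.86, SE 0.43, adjusted p = 0.202, edgeR) and between BEC-like and muscle-like cells (log2 0.54, SE 0.41, adjusted p = 0.318) did not pass the test. Fibroblast-like cells held 2, 4 and 0 UMIs, below muscle-like cells in each library (log2 3.27, SE 0.66, adjusted p = 0.000439).

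Bmpr2 (ENSMUSG00000067336; chr1:59763400-59879014, + strand, GRCm38), the type II receptor, was present in all 6 classes. Its level was 303, 313 and 240 CPM in LEC-like cells and 297, 324 and 223 CPM in BEC-like cells. The other 4 classes lay between 78.3 and 206 CPM with overlapping ranges. The endothelial classes lay above the rest, and did not differ from each other by more than their spread (log2 0.01, SE 0.18, adjusted p = 0.997, edgeR). Bmpr2 was 1.69-fold higher in BEC-like than in muscle-like cells (log2 0.76, SE 0.19, adjusted p = 0.00247), with an adjusted p of up to 0.0461 over the alternatives.

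Acvrl1 (ENSMUSG00000000530; chr15:101128522-101145336, + strand, GRCm38), the type I receptor of endothelium, was 147, 157 and 126 CPM in LEC-like cells and 141, 143 and 107 CPM in BEC-like cells. Fibroblast-like cells held 83.3, 73.0 and 53.4 CPM and pericyte-like cells 67.8, 57.2 and 43.6 CPM, 2 overlapping ranges that lay above the 24.9, 12.8 and 26.9 CPM of muscle-like cells. Schwann-like cells held 8.46, 38.4 and 16.4 CPM. Acvrl1 thus stepped down from endothelium over fibroblast-like and pericyte-like cells to muscle-like and Schwann-like cells. It was higher in BEC-like than in muscle-like cells (log2 2.47, SE 0.25, adjusted p = 1.03e-07, edgeR) and lower in muscle-like than in fibroblast-like cells (log2 -1.79, SE 0.25, adjusted p = 9.78e-06). The difference between BEC-like and LEC-like cells did not pass the test (log2 -0.11, SE 0.22, adjusted p = 0.839), nor did that between muscle-like and pericyte-like cells (log2 -1.06, SE 0.36, adjusted p = 0.0613).

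Eng (ENSMUSG00000026814; chr2:32646595-32682669, + strand, GRCm38), the coreceptor of Acvrl1, was also highest in endothelium. BEC-like cells held 453, 488 and 622 CPM and LEC-like cells 376, 330 and 433 CPM. Pericyte-like cells held 90.4, 89.9 and 59.4 CPM, fibroblast-like cells 36.5, 26.6 and 39.6 CPM, muscle-like cells 12.2, 11.5 and 23.0 CPM and Schwann-like cells 6.34, 6.40 and 24.6 CPM. The ranges of neighbours in this order did not overlap down to the muscle-like cells, and those of muscle-like and Schwann-like cells did. Eng was 32.9-fold higher in BEC-like than in muscle-like cells (log2 5.04, SE 0.25, adjusted p = 1.18e-11, edgeR), whereas its higher CPM in BEC-like than in LEC-like cells did not pass the test (log2 0.48, SE 0.20, adjusted p = 0.0946). It was lower in muscle-like than in pericyte-like cells (log2 -2.09, SE 0.31, adjusted p = 0.000123), with log2 -0.97 and an adjusted p of 0.425 with coarser clusters. BEC markers moved with this difference: the 9 markers summed to 61.6, 28.1 and 57.3 CPM in muscle-like cells (0, 2 and 0 at 0) and to 384, 139 and 368 CPM in pericyte-like cells (0, 2 and 0 at 0), and their part was not tested. In the mixed library Eng in muscle-like, fibroblast-like and Schwann-like cells was below the 46.0 CPM of its empty droplets. The 250 bases before the Eng start (chr2:32646345-32646594, + strand, GRCm38.p6) are shown because Eng was shared by both endothelial classes, with CANNTG in capitals:
Eng: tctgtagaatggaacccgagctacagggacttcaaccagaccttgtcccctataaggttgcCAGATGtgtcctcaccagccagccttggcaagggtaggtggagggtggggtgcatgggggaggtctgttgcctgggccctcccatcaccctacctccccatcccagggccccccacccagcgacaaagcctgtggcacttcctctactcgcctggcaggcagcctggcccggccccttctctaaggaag
This window holds 1 match to CANNTG and none to GGCGCC.

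Among the blood endothelial-like clusters the ligands and receptors varied. Clusters led by Gpihbp1 and Cd36, genes of capillary endothelium, held 124, 48 and 94 cells, and clusters led by Selp, the adhesion molecule of venules, held 99, 12 and 47 cells. A cluster of 74 cells in PLV library 1 was led by Sema3g and Gja5, which mark arterial endothelium, and a cluster of 33 cells in the mixed library was led by Cytl1 and Vwf. The 10 genes were kept out of the clustering, but these clusters were told apart after the values were seen, so their values are given without a test. Bmp4 was 5.58, 10.5 and 1.24 CPM in the Gpihbp1 clusters, 58.2, 79.6 and 43.7 CPM in the Selp clusters, 11.0 CPM in the Sema3g cluster and 336 CPM in the Cytl1/Vwf cluster. Bmp6 was 37.7, 35.5 and 14.9 CPM in the Gpihbp1 clusters, 4.31, 0 and 3.80 CPM in the Selp clusters, 57.9 CPM in the Sema3g cluster and 62.2 CPM (15 UMIs) in the Cytl1/Vwf cluster, where Bmp4 was also highest. Eng was 428, 410 and 366 CPM in the Gpihbp1 clusters, 627, 736 and 836 CPM in the Selp clusters, 279 CPM in the Sema3g cluster and 1012 CPM in the Cytl1/Vwf cluster. In each library the Selp cluster was above the Gpihbp1 cluster for Bmp4 and Eng, and below it for Bmp6.

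**Figure D3:**
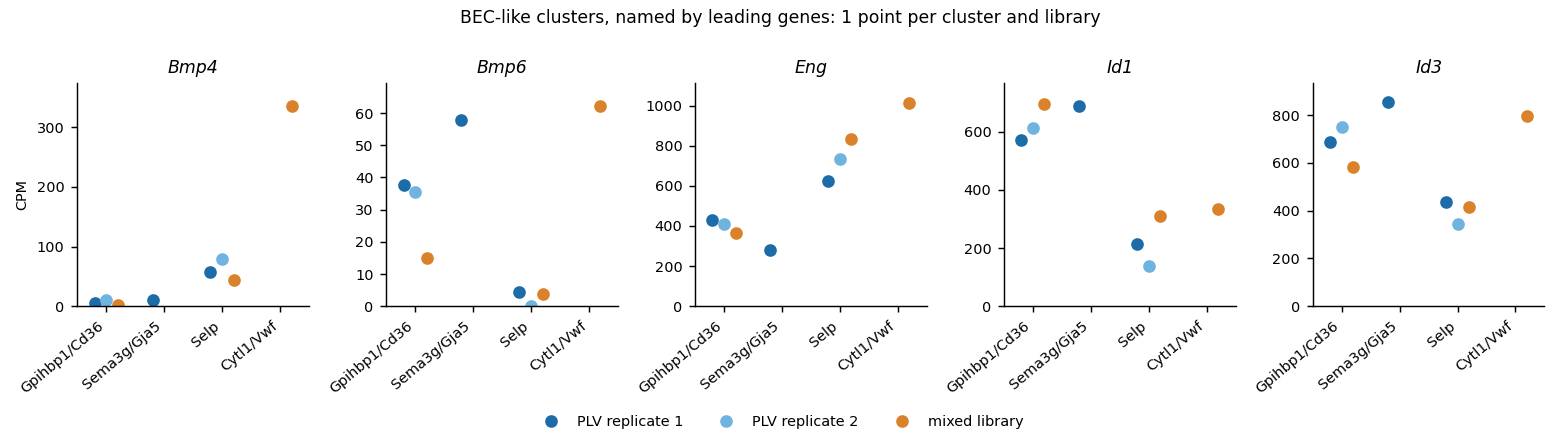
Levels of 5 of the genes (CPM) in the blood endothelial-like clusters, 1 point per cluster and library, with clusters named by their leading genes on the x axis. Id1 lies between 573 and 696 CPM in the Gpihbp1/Cd36 clusters and between 139 and 310 CPM in the Selp clusters, and Bmp4 reaches 336 CPM in the Cytl1/Vwf cluster of the mixed library.

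Id1 (ENSMUSG00000042745; chr2:152736251-152737410, + strand, GRCm38), the Id gene most often used as a readout of BMP signalling in endothelium, separated the 2 endothelial classes. BEC-like cells held 492, 501 and 512 CPM (760, 315 and 806 UMIs), whereas LEC-like cells held 44.6, 48.3 and 85.7 CPM. Muscle-like cells held 197, 148 and 92.0 CPM, and fibroblast-like, pericyte-like and Schwann-like cells 6.40 to 65.4 CPM. BEC-like cells varied little between libraries (501.5 ± 9.66 CPM, SD, n = 3), and no library of another class came near them. Id1 was 8.90-fold higher in BEC-like than in LEC-like cells (log2 3.15, SE 0.29, adjusted p = 9.17e-08, edgeR), with log2 values from 2.98 to 3.47 over the alternatives. It was also higher in BEC-like than in muscle-like cells (log2 1.81, SE 0.27, adjusted p = 1.47e-05), in muscle-like than in fibroblast-like cells (log2 1.21, SE 0.29, adjusted p = 0.00192, and 0.0566 with coarser clusters) and in muscle-like than in pericyte-like cells (log2 1.68, SE 0.38, adjusted p = 0.00506). The last of these was not called without PLV library 1, with a mitochondrial limit of 10%, or with coarser clusters, where its value turned to log2 -0.21. The muscle-like class joins kinds of cells with unlike Id1, given below, and 1 kind lay under fibroblast-like and pericyte-like cells in each library. Within the BEC-like class Id1 was 573, 615 and 696 CPM in the Gpihbp1 clusters, 213, 139 and 310 CPM in the Selp clusters, 689 CPM in the Sema3g cluster and 336 CPM in the Cytl1/Vwf cluster.

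Id2 (ENSMUSG00000020644; chr12:25093799-25097140, - strand, GRCm38), which also guides the development of lymphoid cells, was steady in muscle-like cells at 509, 479 and 471 CPM. Fibroblast-like cells followed with 161, 117 and 174 CPM, and overlapped with Schwann-like cells. The ranges of Schwann-like, BEC-like, pericyte-like and LEC-like cells, from 16.9 to 120 CPM in all, overlapped in that order. Muscle-like cells lay above the other 5 classes in every library. Id2 was 6.52-fold lower in BEC-like than in muscle-like cells (log2 -2.71, SE 0.36, adjusted p = 3.29e-06, edgeR), higher in muscle-like than in pericyte-like cells (log2 3.32, SE 0.45, adjusted p = 3.77e-05, and 0.299 with coarser clusters) and higher in muscle-like than in fibroblast-like cells (log2 1.40, SE 0.33, adjusted p = 0.00204, and 0.0503 without PLV library 2).

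Id3 (ENSMUSG00000007872; chr4:136143497-136145755, + strand, GRCm38), a gene of many dividing and vascular cells, was broad. Fibroblast-like cells held 655, 513 and 1264 CPM, muscle-like cells 952, 650 and 759 CPM, pericyte-like cells 361, 523 and 1192 CPM and BEC-like cells 651, 655 and 559 CPM. LEC-like cells held 371, 271 and 395 CPM and Schwann-like cells 106, 96.0 and 205 CPM. The first 4 classes overlap, and the lowest 2 stand apart from them and from each other, apart from pericyte-like cells of PLV library 1 at 361 CPM. Id3 was 7.89-fold lower in Schwann-like than in fibroblast-like cells (log2 -2.98, SE 0.37, adjusted p = 2.77e-06, edgeR), a call held by all 13 alternatives. Its higher level in BEC-like than in LEC-like cells (log2 0.94, SE 0.31, adjusted p = 0.0374) was not called by DESeq2, with at least 1000 UMIs per cell, without the library block, or without PLV library 1 or 2 (adjusted p up to 0.428).

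Id4 (ENSMUSG00000021379; chr13:48261228-48266026, + strand, GRCm38), known from the nervous system and from germline stem cells, was highest in the mural classes among the 6. Muscle-like cells held 546, 616 and 791 CPM and pericyte-like cells 881, 311 and 610 CPM. Schwann-like cells held 129, 44.8 and 82.1 CPM, fibroblast-like cells 49.5, 66.4 and 48.8 CPM and BEC-like cells 56.4, 30.2 and 36.2 CPM, 3 ranges that overlap in turn. LEC-like cells held 23.6, 2.15 and 1.21 CPM (54, 2 and 1 UMIs). In the mixed library LEC-like, BEC-like, fibroblast-like and Schwann-like cells were all below the 113 CPM of Id4 in its empty droplets (counting interval 93.1 to 136). Outside the 6 classes, an unnamed cluster of 43 cells in the mixed library, with Ccl4, Ccl3 and Il7r among its leading genes, held 705 CPM (55 UMIs), within the range of the mural classes. Id4 was 16.8-fold lower in BEC-like than in muscle-like cells (log2 -4.07, SE 0.43, adjusted p = 1.71e-07, edgeR) and higher in muscle-like than in fibroblast-like cells (log2 3.44, SE 0.42, adjusted p = 1.27e-06). The difference between muscle-like and pericyte-like cells did not pass the test (log2 0.41, SE 0.38, adjusted p = 0.577). The higher level in BEC-like than in LEC-like cells (log2 1.91, SE 0.50, adjusted p = 0.00759) was not called without PLV library 2 or with at least 1000 UMIs per cell, with log2 1.38 to 4.18 over the alternatives. The pericyte and muscle markers given for Bmp2, with larger sums in BEC-like than in LEC-like cells of each library, moved with this difference too, and their part was not tested. The 250 bases before the Id4 start (chr13:48260866-48261115, + strand, GRCm38.p6) are shown as the mural counterpart of Bmp4, with GGCGCC in capitals:
Id4: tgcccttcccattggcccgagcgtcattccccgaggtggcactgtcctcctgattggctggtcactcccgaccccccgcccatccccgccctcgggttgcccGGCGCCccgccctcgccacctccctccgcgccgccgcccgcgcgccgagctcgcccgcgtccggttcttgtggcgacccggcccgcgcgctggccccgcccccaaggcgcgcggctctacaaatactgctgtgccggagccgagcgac
This window is 75.6% G and C and holds 1 match to GGCGCC and none to CANNTG. The element GGCGCC was found in the 250 bases before the RefSeq start of 3 of the 7 genes with sequence (Bmpr2, Id2 and Id4), beside 9.59% of all windows. All 250 bases of the Bmpr2 window and 161 of the Id2 window are annotated exon bases, and the Id2 window lies inside the gene positions given above.

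Schwann-like cells held less of most of these genes than fibroblast-like cells. Acvrl1 (log2 -2.42, SE 0.41, adjusted p = 8.65e-05, edgeR) and Eng (log2 -2.17, SE 0.44, adjusted p = 0.000563) were lower, and both calls were lost without PLV library 1. Id1 (log2 -1.38, SE 0.44, adjusted p = 0.0187) and Id2 (log2 -1.17, SE 0.42, adjusted p = 0.0335) were also lower, and neither was called without PLV library 2, with coarser clusters or with plain CPM. The Id2 call was lost in 7 of 13 alternatives, which also include DESeq2, at least 1000 UMIs per cell, leaving out the mixed library and leaving out the block. Bmpr2 (log2 -0.32, SE 0.22, adjusted p = 0.29) and Id4 (log2 0.35, SE 0.49, adjusted p = 0.638) did not pass the test.

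Genes of the immediate early response, which dissociation of tissue can raise, moved with some of these differences. Of 15 such genes 10 were called lower in BEC-like than in LEC-like cells and 0 higher, beside 9.46% and 12.1% of all genes tested, and their summed level was 10266, 7688 and 9077 CPM in BEC-like and 20358, 15354 and 35727 CPM in LEC-like cells. Between BEC-like and muscle-like cells 1 of 15 was called higher and 9 lower (21.2% and 19.1%), and between muscle-like and fibroblast-like cells 5 higher and 1 lower (17.4% and 21.8%). Between muscle-like and pericyte-like cells 9 were higher and 0 lower (7.44% and 5.73%), and between Schwann-like and fibroblast-like cells 1 higher and 4 lower (15.4% and 20.7%). Their part in the differences was not tested. RNA outside cells gave 314 CPM of Id3, 113 of Id4, 101 of Id2 and 77.0 of Id1 in 185412 empty droplets of the mixed library, and 9.99, 18 and 3 CPM of Bmp2, Bmp4 and Bmp6 (10, 18 and 3 UMIs). The receptors were at 54.0 CPM for Bmpr2, 46.0 for Eng and 24.0 for Acvrl1 there, and Acvrl1 in mixed muscle-like cells (26.9 CPM) lay within the counting interval of that level, 15.4 to 35.7 CPM.

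Muscle-like cells fell into kinds with different BMP and Id genes. Kinds were set by fixed marker genes, each at least 2-fold above the other cells of the library, and the markers need not be the leading genes of a cluster. The kind marked by Ano1 and Hmcn2 held 138, 56 and 195 cells, and the kind marked by Pln and Sorbs2 held 286, 53 and 60. A kind marked by P2rx1 and Col12a1 held 74 cells of the mixed library alone. Pln/Sorbs2 cells were higher in Id1, Id3, Bmp2 and Bmp6, and Ano1/Hmcn2 cells were higher in Id4, Eng and Acvrl1. Of 9 genes of the 10 that were tested between these 2 kinds 7 were called, against 30.8% of the 7076 genes tested. Of these, 3 were higher and 4 lower in the Ano1/Hmcn2 kind, beside 15.1% and 15.7%. Bmp4 was not tested, with 5 UMIs in the Ano1/Hmcn2 and 1 in the Pln/Sorbs2 kind over all libraries.

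Id1 was 278, 241 and 307 CPM in Pln/Sorbs2 cells and 29.2, 15.5 and 37.3 CPM in Ano1/Hmcn2 cells, and 67.8 CPM in the P2rx1/Col12a1 kind. The 2 kinds did not overlap, and Id1 was 10.3-fold lower in Ano1/Hmcn2 cells (log2 -3.37, SE 0.21, adjusted p = 3.01e-11, edgeR). Id4 had the reverse order, with 207, 210 and 204 CPM in Pln/Sorbs2 cells, 1248, 1196 and 954 CPM in Ano1/Hmcn2 cells and 836 CPM in the P2rx1/Col12a1 kind. It was 4.98-fold higher in Ano1/Hmcn2 cells (log2 2.32, SE 0.16, adjusted p = 8.04e-11), again with no overlap. Id3 was 1199, 861 and 1164 CPM in Pln/Sorbs2 and 441, 348 and 656 CPM in Ano1/Hmcn2 cells, 2.49-fold lower in the latter (log2 -1.32, SE 0.16, adjusted p = 6.76e-07). Id2, at 418, 438 and 461 CPM in Pln/Sorbs2 and 700, 538 and 446 CPM in Ano1/Hmcn2 cells, overlapped and did not pass the test (log2 0.21, SE 0.16, adjusted p = 0.376). For Id1, Ano1/Hmcn2 cells lay below fibroblast-like cells (64.8, 37.6 and 52.1 CPM) and pericyte-like cells (50.8, 65.4 and 43.6 CPM) in each library. The whole muscle-like class was called higher than both, so that direction does not hold for this kind.

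The share of cells with an Id1 UMI gave the same order. Among cells thinned to 1500 UMIs it was 32.5%, 20.8% and 28.8% in Pln/Sorbs2 cells and 2.99%, 2.04% and 3.76% in Ano1/Hmcn2 cells. Thinning left out 6, 0 and 1 shallower Pln/Sorbs2 cells and 4, 7 and 9 Ano1/Hmcn2 cells. Without thinning, the Id1 shares were 56.6%, 64.2% and 55.0% in Pln/Sorbs2 cells (median 4878, 8560 and 6675 UMIs per cell) and 10.1%, 7.14% and 15.4% in Ano1/Hmcn2 cells (median 4449, 5954 and 6546). For comparison, 1 of 86 macrophage-like cells of PLV library 1 (1.16%, median 3103 UMIs) and 0 of 31 of the mixed library (median 5322 UMIs; exact binomial upper limit 12.8% for the 27 cells deep enough to thin) held an Id1 UMI. No macrophage-like class was named in PLV library 2, and so few cells set wide limits. These shares therefore cannot show whether Id1 in Ano1/Hmcn2 cells differs from that in macrophage-like cells.

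Bmp2 was 205, 200 and 96.0 CPM in Pln/Sorbs2 cells and 57, 80.8 and 18.3 CPM in Ano1/Hmcn2 cells. The ranges did not overlap, and Bmp2 was 3.89-fold lower in Ano1/Hmcn2 cells (log2 -1.96, SE 0.21, adjusted p = 9.35e-08, edgeR). Bmp6 was lower in Ano1/Hmcn2 cells, with 1, 0 and 2 UMIs against 43, 33 and 9 in Pln/Sorbs2 cells and 5 in the P2rx1/Col12a1 kind, so that 9 of 16 muscle-like UMIs of the mixed library were in the Pln/Sorbs2 kind. Pln/Sorbs2 against Ano1/Hmcn2 gave a ratio of 28.0 with a counting interval of 9.27 to 139 (adjusted p = 1.27e-06). The Ano1/Hmcn2 levels of Bmp6, 1.39, 0 and 1.52 CPM, overlapped those of fibroblast-like cells (1.09, 8.85 and 0 CPM). The whole muscle-like class lay above fibroblast-like cells in each library. Among receptors, Eng had 21, 9 and 37 UMIs (29.2, 28.0 and 28.2 CPM) in Ano1/Hmcn2 cells and 6, 0 and 1 in Pln/Sorbs2 cells (log2 3.15, SE 0.54, adjusted p = 7.37e-05). Acvrl1 was 52.9, 21.8 and 35.1 CPM in Ano1/Hmcn2 and 11.4, 6.51 and 16.4 CPM in Pln/Sorbs2 cells (log2 1.67, SE 0.36, adjusted p = 0.000773, and 0.0915 by DESeq2), whereas Bmpr2 did not differ beyond its spread (log2 0.19, SE 0.18, adjusted p = 0.496). Without PLV library 1, Bmp6 and Acvrl1 were too low to be tested and 5 genes were called. With plain CPM in place of TMM scaling, which moved the median gene by -0.15, the 7 calls and their directions were the same, and 61.2% in place of 49.1% of all calls were higher.

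Other cell types and stress genes also moved between the kinds. Fibroblast markers, of which 0, 2 and 1 of 8 were at 0, summed to 3376, 2766 and 5168 CPM in Ano1/Hmcn2 cells, and with 1, 4 and 0 at 0 to 577, 456 and 2078 CPM in Pln/Sorbs2 cells. The 9 BEC markers summed to 153, 52.8 and 43.4 CPM in Ano1/Hmcn2 cells (0, 3 and 3 at 0) and to 17.5, 10.8 and 18.7 CPM in Pln/Sorbs2 cells (2, 5 and 5 at 0), and BEC-like cells held the highest Eng. Eng and Acvrl1 in fibroblast-like cells, at 36.5, 26.6 and 39.6 CPM and 83.3, 73.0 and 53.4 CPM, were near or above their levels in the Ano1/Hmcn2 kind. The 8 pericyte markers summed to 1810, 1408 and 1101 CPM in Ano1/Hmcn2 cells and to 2061, 1766 and 1935 CPM in Pln/Sorbs2 cells (0, 1 and 0 at 0 in both). Among the 6 classes, pericyte-like cells held the highest Bmp2. Of the 15 immediate early genes 9 were called lower and 1 higher in Ano1/Hmcn2 cells, beside 15.7% and 15.1% of all genes tested, with summed levels of 14077, 11629 and 16327 CPM against 25139, 12724 and 26247 CPM. The part of these lists in the differences was not tested.

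**Figure D4:**
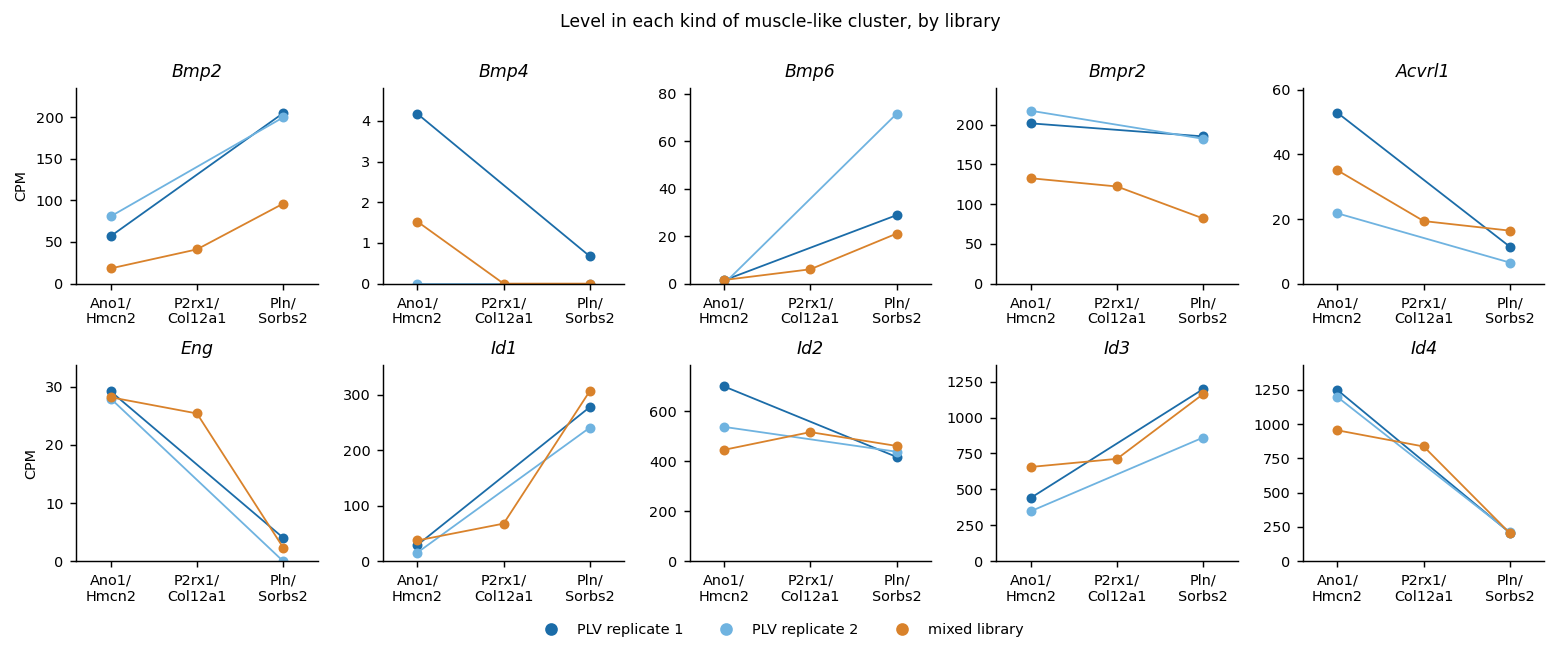
Levels (CPM) of the genes in the kinds of muscle-like cells, with 1 point per library and kind and lines that join the kinds of 1 library. In each of the 3 libraries Id1 and Bmp2 are higher and Id4 is lower in the Pln/Sorbs2 than in the Ano1/Hmcn2 kind.

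Bmp2 and Bmp6 were lower in mixed than in PLV muscle-like cells. Of 9 genes tested 4 were called, against 16.7% of the 10835 genes tested. Of these 1 was higher (Eng) and 3 were lower (Bmp2, Bmp6 and Id1), beside 8.84% and 7.83%. With 1 mixed library, this test assumes that it varies like the PLV libraries. Bmp2 was 157 and 151 CPM in the PLV libraries and 38.6 CPM in the mixed library, 3.42-fold lower (log2 -1.77, SE 0.27, adjusted p = 4.96e-09, edgeR). Bmp6 was 19.9 and 42.2 CPM against 6.24 CPM (log2 -1.91, SE 0.41, adjusted p = 0.000105). Id1 was 197 and 148 CPM against 92.0 CPM (log2 -0.70, SE 0.25, adjusted p = 0.0354) and Eng 12.2 and 11.5 CPM against 23.0 CPM (log2 1.16, SE 0.37, adjusted p = 0.0163). The 8 fibroblast markers moved with these differences, at 1488 and 1405 CPM (0 and 2 markers at 0) against 4779 CPM (0 at 0). The 8 pericyte markers summed to 1979 and 1619 CPM against 1115 CPM, with 0 at 0 in each, and pericyte-like cells held the highest Bmp2. The part of either list was not tested. DESeq2 called 1 of these 4, Bmp2, and with at least 1000 UMIs per cell 2 of the 10 genes were called.

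The mixture of kinds differed between libraries, and it moves with these values. Pln/Sorbs2 cells were 286 of 424 and 53 of 109 muscle-like cells in the PLV libraries and 60 of 329 in the mixed library. Within 1 kind, an alternative chosen after seeing the data, Id1 had values above 0 in the mixed library (log2 0.88, SE 0.38, in Ano1/Hmcn2 cells and 0.40, SE 0.26, in Pln/Sorbs2 cells), neither value called. Bmp2 was called lower within Ano1/Hmcn2 cells (log2 -1.56, SE 0.39) and had a value of -0.90 (SE 0.30), not called, within Pln/Sorbs2 cells. Within Ano1/Hmcn2 cells Id3 was called higher (log2 1.00, SE 0.27) and the Eng value was 0.26, and within Pln/Sorbs2 cells Bmp6 was -0.82 (SE 0.50) and Bmpr2 was called lower (log2 -0.99, SE 0.31). With plain CPM, which puts the median gene 0.22 lower than TMM scaling does, Eng was no longer called, and 25.5% in place of 53% of all calls were higher. Immediate early genes moved too, with 5 of 15 called higher and 1 lower in mixed muscle-like cells (8.84% and 7.83%); their part was not tested.

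**Figure D5:**
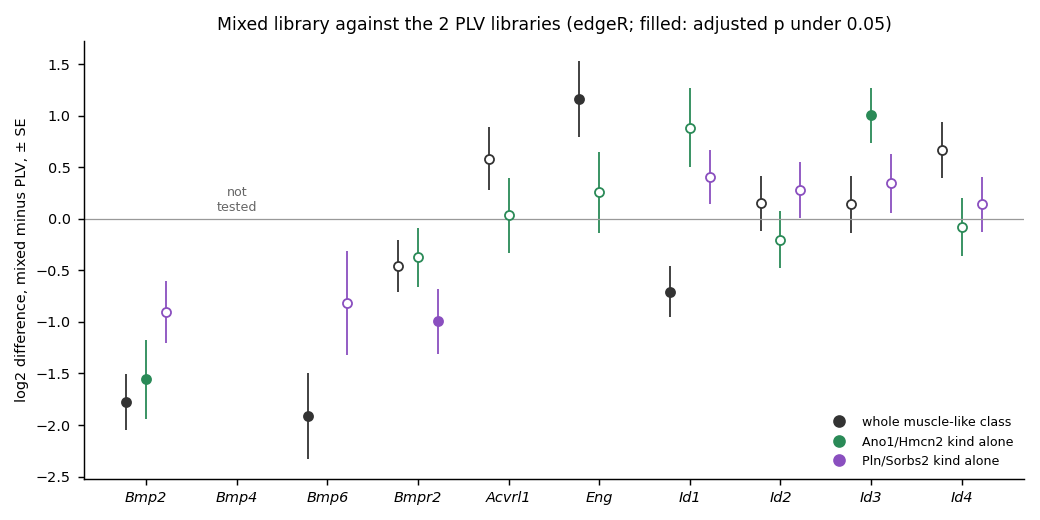
Log2 difference of the genes between the mixed library and the PLV libraries in all muscle-like cells, in the Ano1/Hmcn2 kind alone and in the Pln/Sorbs2 kind alone, with bars for the SE. Id1 lies at -0.70 over all muscle-like cells and at 0.88 and 0.40 within the kinds.

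In BEC-like cells 1 of 10 genes was called between the mixed and PLV libraries, against 1.97% of the 10212 genes tested (1.16% higher and 0.813% lower). Bmp4 was 22.7 and 27.0 CPM in the PLV libraries and 66.6 CPM in the mixed library (log2 1.61, SE 0.31, adjusted p = 0.00659, edgeR), and was not called with at least 1000 UMIs per cell, while DESeq2 gave it no adjusted p. Without the 33 cells of the Cytl1/Vwf cluster, the BEC-like cluster with the highest Bmp4, the difference was log2 -0.27 (SE 0.40) and was not called. A cluster of 73 cells in PLV library 2, also led by Cytl1 and with 95 CPM of Bmp4, stayed unnamed and is not in the BEC-like sum. The part of these clusters in the difference was not tested. In LEC-like cells 1 of 9 genes tested was called, against 0.744% of 9001 genes (0.422% higher and 0.322% lower). Id2 was 68.7 and 64.4 CPM in the PLV libraries and 16.9 CPM in the mixed library (log2 -1.76, SE 0.36, adjusted p = 0.0261), and was not called with a mitochondrial limit of 10% or with coarser clusters, while DESeq2 gave it no adjusted p. The mixed level was below the 101 CPM (counting interval 82.2 to 123) of Id2 in the empty droplets. Muscle markers summed to 1474 and 198 CPM against 181 CPM in these cells (0, 2 and 4 of 9 at 0), and their part was not tested. In fibroblast-like cells 2 of 9 were called, against 11.2% of 10547 genes (7.48% higher and 3.71% lower). Id3 was 655 and 513 CPM against 1264 CPM (log2 1.64, SE 0.34, adjusted p = 0.00228), called in each of the 9 alternatives with a test, with log2 1.11 under plain CPM. The clusters of this class differed in part between the libraries: the largest mixed cluster, led by Col4a4 (138 cells, Id3 at 1403 CPM), had no PLV cluster with the same leading gene. The clusters with Cxcl14 and Inmt among their leading genes held 943 and 515 CPM in the PLV libraries and 1002 CPM in the mixed library, and those with Pi16, Fn1 and Fbn1 held 462, 460 and 1424 CPM (140, 12 and 41 cells). The 8 fibroblast markers, none at 0, summed to 45234 and 37357 CPM against 113942 CPM. The part of the clusters and of these markers in the Id3 result was not tested. Bmp2 was 20.1 and 31.0 CPM against 3.22 CPM (log2 -2.34, SE 0.67, adjusted p = 0.0247) and was not called with at least 1000 UMIs per cell or with predicted doublets kept, while DESeq2 gave it no adjusted p. TMM scaling moved the median gene by 0.15, 0.22 and 0.54 in these 3 classes, and plain CPM gave 28.8%, 30.8% and 17% higher among all calls in place of 58.7%, 56.7% and 66.9%. Of the 15 immediate early genes 1, 5 and 3 were called higher in the mixed library in BEC-like, LEC-like and fibroblast-like cells and 0, 0 and 1 lower, and their part was not tested.

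The rest of the pathway was read from a list of 53 ligands, receptors, antagonists, Smads, targets and E proteins. Of its 37 genes tested among classes, 13 were called higher and 8 lower in BEC-like than in LEC-like cells (12.1% and 9.46% of all genes tested), and 9 higher and 16 lower in BEC-like than in muscle-like cells (21.2% and 19.1%). Muscle-like cells had 10 higher and 17 lower than fibroblast-like cells (17.4% and 21.8%), and 9 higher and 4 lower than pericyte-like cells (7.44% and 5.73%). Schwann-like cells had 1 higher and 22 lower than fibroblast-like cells (15.4% and 20.7%). The median log2 differences of the list were 0.57, -0.32, -0.44, 0.20 and -1.51, beside 0.04, 0.03, -0.04, 0.04 and -0.13 over all genes tested.

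The inhibitory Smads, which BMP signalling induces and which damp it, were higher in BEC-like than in LEC-like cells. Smad6 was 24.6, 22.3 and 9.52 CPM in BEC-like cells and 0 in LEC-like cells of all 3 libraries, at least 24.1-fold higher (adjusted p = 9.19e-07, edgeR). Smad7 was 84.2, 79.5 and 55.2 CPM against 10.5, 18.2 and 12.1 CPM (log2 2.50, SE 0.31, adjusted p = 3.43e-06), and Atoh8, a target of Acvrl1 signalling, 16.8, 20.7 and 13.3 CPM against 2.19, 1.07 and 6.03 CPM (log2 2.53, SE 0.54, adjusted p = 0.00132, and 0.0528 without PLV library 2). Among the E proteins Tcf12 and Tcf4 were called higher in BEC-like than in LEC-like cells, and all 3 (Tcf3, Tcf4 and Tcf12) in BEC-like than in muscle-like cells. The transducers Smad1 and Smad5 and the decoy receptor Bambi were called lower in BEC-like than in LEC-like cells. Between BEC-like and muscle-like cells, where Id1 also differed, neither Smad6 (log2 -0.56, SE 0.30, adjusted p = 0.151) nor Smad7 (log2 -0.18, SE 0.25, adjusted p = 0.601) passed the test. Between the muscle kinds Smad6 was higher (log2 0.90, SE 0.33, adjusted p = 0.0389) and Smad7 lower (log2 -0.92, SE 0.20, adjusted p = 0.000986) in Ano1/Hmcn2 cells, where Id1 was lower.

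Antagonists and modulators outside the cell bind BMP ligands or their receptors. Of 13 tested, 1 (Mgp) was called higher and 9 lower in BEC-like than in muscle-like cells, including Fstl3 (3.89, 4.77 and 2.54 CPM against 55.2, 47.3 and 65.5 CPM; log2 -3.99, SE 0.33, adjusted p = 7.45e-09, edgeR), beside 21.2% and 19.1% of all genes tested. Between muscle-like and fibroblast-like cells 3 were called higher and 7 lower, beside 17.4% and 21.8%. Crim1, which tethers BMPs at the cell surface, was higher in muscle-like cells (605, 594 and 208 CPM against 45.2, 39.8 and 16.1 CPM; log2 3.55, SE 0.24, adjusted p = 6.66e-10). Mgp, which binds Bmp2 and Bmp4, was lower there (72.4, 30.7 and 118 CPM against 546, 1005 and 2448 CPM; log2 -4.44, SE 0.52, adjusted p = 8.37e-07). In Schwann-like cells 10 of 13 were called lower than in fibroblast-like cells, beside 20.7%, and Sostdc1 was the 1 called higher (357, 429 and 715 CPM against 1.63, 6.64 and 0 CPM; log2 7.95, SE 0.51, adjusted p = 3.01e-08), with an adjusted p of 0.123 by DESeq2.

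Between the muscle kinds 15 of 30 genes of the list were called higher and 4 lower in Ano1/Hmcn2 cells (15.1% and 15.7% of all genes tested), with a median log2 of 0.50 beside -0.01 over all genes tested. Of 10 antagonists 7 were called higher and 2 lower. Fst, which encodes the activin and BMP antagonist follistatin, was 455, 497 and 465 CPM in Ano1/Hmcn2 cells and 0.671, 0 and 77.3 CPM in Pln/Sorbs2 cells (log2 4.73, SE 0.52, adjusted p = 1.72e-07, edgeR). Its log2 value ran from 3.59 to 9.27 over the alternatives, with the highest value without the mixed library and with coarser clusters, and the call held in all 13. Nbl1 was 626, 541 and 461 CPM against 125, 111 and 129 CPM (log2 2.03, SE 0.17, adjusted p = 2.26e-09), and Chrdl1 66.8, 52.8 and 93.0 CPM against 0.671, 0 and 4.68 CPM, a ratio of 63.0 with a counting interval of 21.2 to 308 (adjusted p = 5.59e-09). The divergent family ligand Gdf10 was 317, 196 and 115 CPM against 0, 0 and 4.68 CPM, a ratio of 223 with a counting interval of 61.5 to 1850 (adjusted p = 1.22e-11). Crim1 went the other way, with 266, 292 and 116 CPM against 769, 805 and 368 CPM (log2 -1.69, SE 0.15, adjusted p = 9.93e-09). Gdf10 and Chrdl1 were also held by fibroblast-like cells (365, 487 and 562 CPM, and 128, 137 and 153 CPM), whose markers were higher in the Ano1/Hmcn2 kind as given above. Like these 2, Nbl1, Tmem100 and others of the genes called higher in that kind were called higher in fibroblast-like than in muscle-like cells. Some, with Smad6 and Fstl3 among them, were called lower there, and Fst was not called. The part of the fibroblast markers in these counts was not tested.

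In the mixed library, 5 of 38 genes of the list tested in muscle-like cells were called higher and 6 lower than in the PLV libraries (8.84% and 7.83% of all genes tested). Chrdl1 was 22.2 and 21.7 CPM in the PLV libraries and 70.2 CPM in the mixed library (log2 1.89, SE 0.27, adjusted p = 3.77e-10, edgeR), with log2 0.88 and an adjusted p of 0.070 within Ano1/Hmcn2 cells. The fibroblast markers given for Eng were higher in these mixed cells, and their part in the Chrdl1 result was not tested. Crim1 was 605 and 594 CPM against 208 CPM (log2 -1.31, SE 0.28, adjusted p = 0.000103). Tmem100, a target of endothelial Acvrl1 signalling, was called higher over all muscle-like cells (log2 1.36, SE 0.25, adjusted p = 1.69e-06), was not called by DESeq2, and had a value of -0.40 within Ano1/Hmcn2 cells. Among classes Tmem100 was called higher in fibroblast-like than in muscle-like cells (1092 UMIs in fibroblast-like cells) and lower in BEC-like than in muscle-like cells. The part of the fibroblast markers in the Tmem100 result was not tested either. The other classes had few calls: 0 higher and 1 lower of 30 in BEC-like cells (Rgmb), 0 and 1 of 25 in LEC-like cells (Gdf10) and 1 and 1 of 38 in fibroblast-like cells (Mgp higher and Smurf1 lower), against 1.97%, 0.744% and 11.2% of all genes tested. Rgmb was not called with at least 1000 UMIs per cell, and Gdf10 was not called with a mitochondrial limit of 10%, with coarser clusters or with plain CPM (edgeR adjusted p up to 0.355). DESeq2 gave Rgmb, Gdf10 and Smurf1 no adjusted p in these classes.

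The genes whose levels ran most like each of the 10 were taken from 6885 genes over the 18 sums of 6 classes and 3 libraries, by Pearson's r of log2(CPM + 10). The 18 points share libraries and cell classes, so r describes these sums and has no test. Bmp2 ran with Rgs6 (r = 0.98), Trabd2b (0.97) and Limd1 (0.96), and Bmp4 with Lbp (0.98), Cgnl1 (0.96) and Vsir (0.95). Bmp6 had weaker partners, led by 2900026A02Rik (0.88), and Bmpr2 was closest to Taok2 (0.91). Eng followed Pecam1 (0.96), Elk3 (0.96) and Tbkbp1 (0.95), and Acvrl1 followed Npr1 (0.94), Thbd (0.94) and Fmo1 (0.93). Pecam1 is an endothelial marker that was used to name the classes. Id1 was closest to Tcf15 (0.91) and St6galnac2 (0.91), Id2 to Wfdc1 (0.88), Id3 to Gadd45g (0.87) and Id4 to Khdrbs3 (0.94). Within the 10 genes Acvrl1 and Eng ran together (0.87), Bmp2 and Id4 ran together (0.85), and Bmp4 and Id4 ran in opposite directions (-0.84).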

How the data were processed

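The deposited files hold UMI counts per gene and cell barcode, made by the authors with Cell Ranger (6.1.2 for the PLV libraries and 4 for the mixed library, per the file headers) on GRCm38, with Seurat also named in the submitters' processing notes. A cell was kept from 500 UMIs and 300 genes upward, up to a mitochondrial share of 15% and a haemoglobin share of 20%, and 8, 3 and 3 predicted doublets were removed. Each library was clustered alone (scanpy 1.11.5, Leiden 0.10.2, 2000 variable genes without the 10 genes, 50 components, 15 neighbours, resolution 1). A cluster was named where at least 3 markers of a class were 2-fold above the other clusters in at least 10% of its cells; 128, 73 and 43 cells stayed unnamed. Counts were summed per library and class and tested with edgeR 4.0.16 (quasi-likelihood, TMM, filterByExpr) in R 4.3.3, with DESeq2 1.42.0 as an alternative. Other alternatives changed scaling, filters, resolution and the libraries used. The test was checked on simulated data: of 200 genes changed 4-fold it recovered 73.5% between muscle-like and fibroblast-like cells, 61.5% between the muscle kinds and 24.5% between the mixed and PLV libraries in muscle-like cells. Library is a block because classes of 1 library share mice, digestion and run. The 10 genes and all lists were chosen with earlier results of these data known, and details of the naming rule were settled after clusters had been seen. The 10 genes are named throughout; other pathway genes are named from the at most 6 called genes with the largest log2 difference in a comparison (10 UMIs or more in a summed class), and from a count of 5 or fewer. Gene positions are from GENCODE vM21 (GRCm38) and upstream sequences from RefSeq (GRCm38.p6).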

Additional observations from a re-analysis of the deposited data

Results flagged for a closer look

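Id1 had values of opposite sign between the mixed and the PLV libraries in different classes. In muscle-like cells its log2 difference was -0.70 (called, adjusted p = 0.0354, edgeR), with the mixed library below both PLV libraries. It was 0.19 in BEC-like cells (adjusted p = 0.784) and 1.11 in LEC-like cells (adjusted p = 0.0827), neither called, with the mixed library above both. The LEC-like value was called in 5 of the 8 alternatives that gave an adjusted p, with adjusted p from 0.0081 to 0.324 (edgeR) and log2 0.89 to 1.14. Its mixed level of 85.7 CPM lay within the counting interval of Id1 in the empty droplets of that library (77.0 CPM, 60.7 to 96.2). Within the Ano1/Hmcn2 and Pln/Sorbs2 kinds of muscle-like cells the Id1 value was 0.88 and 0.40, neither called. The mixed Ano1/Hmcn2 level, 37.3 CPM, was below that of the empty droplets. The difference between the classes was not tested.

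Id2 was called lower in LEC-like cells of the mixed library (log2 -1.76, adjusted p = 0.0261, edgeR) and had a value of 0.84 in its fibroblast-like cells, which was not called (adjusted p = 0.0871). Id3 was called higher in fibroblast-like cells of the mixed library (log2 1.64, adjusted p = 0.00228) and had a value of -0.08 in its BEC-like cells (SE 0.27), which was not called (adjusted p = 0.914). Neither difference between classes was itself tested, and the mixed library is 1 sample.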

How the results depend on the processing

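Alternatives within single kinds or clusters and those with plain CPM (total UMIs without TMM) were chosen after seeing the data; the others were planned. In counts of genes called, muscle-like against pericyte-like cells gave 1381, which became 697 under a mitochondrial limit of 10%, 326 at resolution 0.5 and 737 to 1183 with 1 library left out. Schwann-like against fibroblast-like cells gave 3787, and 2161 to 3535 with 1 library left out. The muscle kinds gave 2178, which became 1238 by DESeq2, 1404 with no replicate block and 1441 to 2424 with 1 library left out; without the block, Id3 was also no longer called between BEC-like and LEC-like cells. Mixed against PLV libraries gave 1806 in muscle-like cells (196 by DESeq2, 481 and 324 in the Ano1/Hmcn2 and Pln/Sorbs2 kinds alone) and 1180 in fibroblast-like cells (217 by DESeq2, 1827 with plain CPM). In BEC-like cells it gave 201, against 26 by DESeq2, 356 without a filter on low counts, 15 with at least 1000 UMIs per cell, 395 under a mitochondrial limit of 10%, 432 with doublets kept, 500 and 439 at resolutions 0.5 and 2, 482 with plain CPM, 125 without the Cytl1/Vwf cluster and 432 in Gpihbp1 clusters alone. In LEC-like cells it gave 67, against 23, 216, 251, 6, 289, 13, 185 and 39 under the first 8 of these settings in the same order. Leaving out a PLV library set the mixed library against 1 PLV library, which gives values and no test.

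Of the 10 genes, the count called between BEC-like and LEC-like cells went from 5 to 3 with at least 1000 UMIs per cell and to 3 to 5 with 1 library left out. Between muscle-like and pericyte-like cells it went from 3 to 0 at resolution 0.5, and between Schwann-like and fibroblast-like cells from 7 to 4 to 6 with 1 library left out. Mixed against PLV, it went from 4 to 1 by DESeq2, 2 with at least 1000 UMIs, and 2 and 1 within the kinds in muscle-like cells, and from 1 to 0 with at least 1000 UMIs and without the Cytl1/Vwf cluster in BEC-like cells. In LEC-like cells it went from 1 to 0 under a mitochondrial limit of 10% and at resolution 0.5, to 2 with DESeq2 size factors and at resolution 2, and to 3 without the filter, with at least 1000 UMIs and with doublets kept. In fibroblast-like cells it went from 2 to 1 with at least 1000 UMIs and with doublets kept. In these 3 classes DESeq2 gave a called gene of the 10 no adjusted p, so it has no count there. Over all genes, 179 of 201, 42 of 67 and 512 of 1180 edgeR calls had none by DESeq2 in BEC-like, LEC-like and fibroblast-like cells, and 182 of 1806 in muscle-like cells. The highest class held for 6 to 9 of the 10 genes with 1 library left out.

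Direction (log2) changed as follows. Bmpr2 between BEC-like and LEC-like cells was -0.0023 with DESeq2 size factors, -0.0064 with at least 1000 UMIs, -0.016 and -0.0012 at resolutions 0.5 and 2, -0.027 with plain CPM and -0.078 to 0.035 with 1 library left out (lowest without PLV library 2). Between muscle-like and fibroblast-like cells, Bmpr2 was -0.055 to 0.20 and Id3 -0.51 to 0.30 with 1 library left out (both turned without the mixed library), and Id3 0.052 with plain CPM. Between muscle-like and pericyte-like cells, Bmp6 was -0.087 and Id1 -0.21 at resolution 0.5. With 1 library left out, Bmp2 was -0.63 to 0.0034 there (turned without the mixed library) and Id3 -0.038 to 1.08 (turned without PLV library 1). Between Schwann-like and fibroblast-like cells, Bmp6 was -4.39 to 0.97 (turned without PLV library 2) and Id4 -0.21 to 0.66 (turned without PLV library 1) with 1 library left out, and Bmpr2 0.016 with plain CPM. In mixed against PLV muscle-like cells, Id1 was 0.88 and 0.40 within the Ano1/Hmcn2 and Pln/Sorbs2 kinds, Id2 -0.20, Id4 -0.080 and Tmem100 -0.40 within the Ano1/Hmcn2 kind, Id2 -0.070 and Id3 -0.083 with plain CPM, and Id3 -0.058 at resolution 0.5. In BEC-like cells, Bmp4 was -0.27 and Id4 0.050 without the Cytl1/Vwf cluster, and Eng -0.050 and Id4 0.37 in Gpihbp1 clusters. In LEC-like cells, Bmp4 was -0.17 with plain CPM. In fibroblast-like cells, Id1 was -0.055 and Id4 -0.21 with plain CPM, and Acvrl1 0.0024 without the filter, 0.19 with at least 1000 UMIs and 0.019 under a mitochondrial limit of 10%. The cause was not tested. Depth limits Bmp2, Bmp4 and Bmp6 in classes with few UMIs, and 27 to 40 pericyte-like cells per library limit that class.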

Other observations

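Immune cells outside the main comparisons had their own pattern of Id genes. In PLV library 1 Id2 was 397 CPM in 55 T or NK-like cells (61 UMIs) and 1466 CPM in 23 mast-like cells (54 UMIs), against 0 UMIs in 48 B-like cells, where 3 UMIs would be 31.2 CPM. Macrophage-like cells held 210 CPM of Id2 in PLV library 1 and 84.2 CPM in the mixed library, with 0 UMIs of Id4 and 2 and 3 UMIs of Id3. A cluster of 37 cells in PLV library 2 that met the mast markers held 341 CPM of Id2 (79 UMIs), but was led by the MHC class II genes Cd74 and H2-Aa, which mark other immune cells. An unnamed cluster of 43 cells in the mixed library, with the immune genes Ccl4, Ccl3 and Cd52 among its leading genes, held 705 CPM of Id4 (55 UMIs). The classes were named in 1 or 2 libraries, and neither they nor the unnamed cluster were tested.

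An unnamed cluster of 73 cells in PLV library 2, led by Cytl1, held 297 CPM of Eng and 95 CPM of Bmp4.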
